A study of Homo sapiens with 8 samples.

Results

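H3K27ac was examined around 10 genes that encode inflammatory cytokines and chemokines, namely IL6, IL11, IL1A, IL1B, CXCL8, CXCL1, CXCL2, CXCL3, CXCL5 and CCL2. H3K27ac is histone H3 acetylated at lysine 27, a mark of active enhancers and promoters. ChIP-seq had been done in A549, a line derived from a human lung adenocarcinoma, in which NRF2 is persistently active because its inhibitor KEAP1 is mutated. Cells were harvested 48 hours after transfection with control siRNA (3 libraries) or siRNA against NRF2 (3 libraries). All 6 libraries came from the same line and none was left untransfected. Replicate 1 received NRF2 siRNA 28, and replicates 2 and 3 received siRNA 30. Per the study's methods the replicates were independent experiments, and p-values here measure the spread between them.

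A region was a stretch of DNA in which broad peaks of the 6 libraries overlapped by at least 1 base. A region belonged to a gene when it overlapped the gene body or the 50 kb on either side (GENCODE genes on GRCh37). By this rule 48 of 49186 regions belonged to the 10 genes, and 13 of the 48 lay in the windows of more than 1 gene. Regions are numbered R1 to R48 by position. A region counts as called in every library that has a peak within it. The height of a region in a library was given as its percentile, the share of that library's peaks with a lower fold enrichment, with ties counted at their middle. A percentile compares a region with the rest of its own list and is not a level of acetylation.

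The products of these genes fall into 3 kinds. IL-6 and IL-11 signal through receptors that share gp130 and activate JAK and STAT3. IL-1α and IL-1β act on IL1R1 and switch on NF-κB. CXCL1, CXCL2, CXCL3, CXCL5 and CXCL8 are chemokines that attract neutrophils through CXCR2 and, for CXCL8, also CXCR1, and CCL2 attracts monocytes through CCR2. Many of these genes are classic NF-κB targets. NRF2 drives antioxidant and detoxification genes through antioxidant response elements, and in macrophages it has been described as restraining transcription of IL6 and IL1B. The comparison asks whether loss of NRF2 was accompanied by more H3K27ac at these loci, that is, whether they opened.

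The promoters are shown first because the chemokine genes share a sequence feature in them. RefSeq promoter entries (GRCh38.p14) matched 9 of the 10 genes by symbol, all but CCL2. The 250 bases before the start were searched on both strands for GGANTTTCC, a κB motif, where N is any base. It was found in 6 of the 9 genes, CXCL1, CXCL2, CXCL3, CXCL5, CXCL8 and IL6, and in 1.42% of the promoters of 15318 protein-coding genes. The letters were not found in these 250 bases of IL1A, IL1B or IL11. Each sequence runs 5′ to 3′ on the gene's strand up to the base before the start, with the κB match in capitals. The GRCh37 position found by exact match was chr4:74734860-74735109 (plus strand) for CXCL1, chr4:74964913-74965162 (minus) for CXCL2, chr4:74904407-74904656 (minus) for CXCL3 and chr4:74864395-74864644 (minus) for CXCL5.
CXCL1: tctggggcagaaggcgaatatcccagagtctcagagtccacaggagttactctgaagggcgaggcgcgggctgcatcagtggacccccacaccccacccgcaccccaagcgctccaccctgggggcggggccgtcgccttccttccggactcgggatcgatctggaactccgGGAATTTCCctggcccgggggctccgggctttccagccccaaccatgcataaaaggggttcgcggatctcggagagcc
CXCL2: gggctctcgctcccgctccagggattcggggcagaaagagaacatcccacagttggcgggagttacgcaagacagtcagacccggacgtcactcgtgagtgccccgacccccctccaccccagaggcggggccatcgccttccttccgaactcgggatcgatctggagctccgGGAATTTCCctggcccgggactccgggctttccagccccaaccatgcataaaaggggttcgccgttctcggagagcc
CXCL3: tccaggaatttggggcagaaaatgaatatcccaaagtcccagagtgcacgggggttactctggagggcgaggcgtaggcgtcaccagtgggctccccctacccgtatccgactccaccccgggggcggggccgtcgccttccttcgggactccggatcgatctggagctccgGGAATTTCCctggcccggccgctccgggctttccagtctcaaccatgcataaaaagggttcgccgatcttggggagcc
CXCL5: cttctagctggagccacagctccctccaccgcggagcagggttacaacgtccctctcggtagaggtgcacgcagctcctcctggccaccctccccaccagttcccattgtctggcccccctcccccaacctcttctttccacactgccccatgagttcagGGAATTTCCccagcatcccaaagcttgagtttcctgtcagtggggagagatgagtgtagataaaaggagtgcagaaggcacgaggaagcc
The match began 78, 77, 78 and 90 bases before the start of CXCL1, CXCL2, CXCL3 and CXCL5. Over the last 100 bases before the start, compared without gaps, CXCL1 and CXCL3 were identical at 90% of positions, CXCL1 and CXCL2 at 73%, and CXCL1 and CXCL5 at 27%. For CXCL8 and IL6, 29 bases around the match are given, which began 91 and 72 bases before the start.
CXCL8: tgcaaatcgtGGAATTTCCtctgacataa
IL6: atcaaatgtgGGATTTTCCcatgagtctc
A match describes the letters and is not evidence that a factor was bound.

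The 6 peak lists differed in length. The control lists held 27941, 34747 and 41571 peaks over 64.7, 85.0 and 113.3 Mb, and the NRF2 siRNA lists 23885, 34986 and 39108 peaks over 46.3, 84.8 and 105.7 Mb. The list of NRF2 siRNA replicate 1 was the shortest. Peak names of replicate 1 in both groups lack the flow cell identifier that the other libraries carry. The study's reporting summary also lists fewer mapped reads for both replicate 1 libraries than for any other H3K27ac library. These technical differences and siRNA 28 cannot be told apart. The starts of 5 of 6 epithelial marker genes were called in all 6 libraries, and KRT19 in 5. Among immune marker genes, the starts of PTPRC, CD3E, ITGAM and CSF1R were called in none, while those of CD14 and CD68 were called in all 6. Of 4 fibroblast and endothelial markers found in the annotation, 3 were called in none and COL1A1 in 2 libraries. The siRNA acts on NRF2 mRNA, which peak lists do not measure, so the knockdown could not be checked here.

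Loss of NRF2 was not accompanied by a general gain of H3K27ac at these loci. Of the 48 regions, 19 were called in all 6 libraries (39.6%, against 34.2% of all regions), 12 in 3 to 5, 4 in 2 and 13 in a single library. The 31 regions called in at least 3 libraries were tested, as were 32673 regions genome-wide. Ranks within each library were turned into normal scores, the values of a standard normal distribution at those ranks, and scores were compared with limma and Benjamini-Hochberg adjustment over all tested regions. At an adjusted p under 0.05, 2 of the 31 regions fell with NRF2 siRNA (6.45%, against 3.39% of all tested regions) and 0 rose (against 2.01%). At an unadjusted p under 0.05, 6 were lower (19.4%, against 10.7% of all tested regions) and 0 higher (against 11.9%). No setting tried gave a rise. With the replicate number as a block, 3 fell (9.68%, against 6.62%) and 0 rose (against 5.72%). R16 was among these falls and among the 6 lower regions at the unadjusted cut. It met the filter through control libraries alone, so it is not independent support for a fall in either count.

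The changes at the 31 regions lay on both sides of 0. The change in score, NRF2 siRNA minus control, was below 0 at 18 regions (58.1%, against 48.5% of all tested regions). Its median was -0.03, against 0.02 over all tested regions, and its quartiles were -0.42 and 0.22, against -0.28 and 0.33. Groups did not overlap in percentile at 5 regions that were lower with NRF2 siRNA (16.1%, against 12.8% of all tested regions) and at 1 that was higher (3.23%, against 7.39%). The change had one sign in all 3 replicate pairs at 18 regions, 9 lower and 9 higher. R16, which met the filter through control libraries alone, was among both the 5 and the 9 lower regions. In 2 of the 9 higher ones, R22 and R29, neither library of pair 1 had a peak, and the rise in that pair comes from the ranking of uncalled regions. The share of all tested regions with one sign in all 3 pairs was not counted. These counts are therefore descriptive and not read as particular to these loci. The highest upper 95% bound of a change among the 31 was 1.13 score units, and a rise smaller than that lies within the interval of at least 1 region. The 17 regions called in 1 or 2 libraries were not tested.

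**Figure D1:**
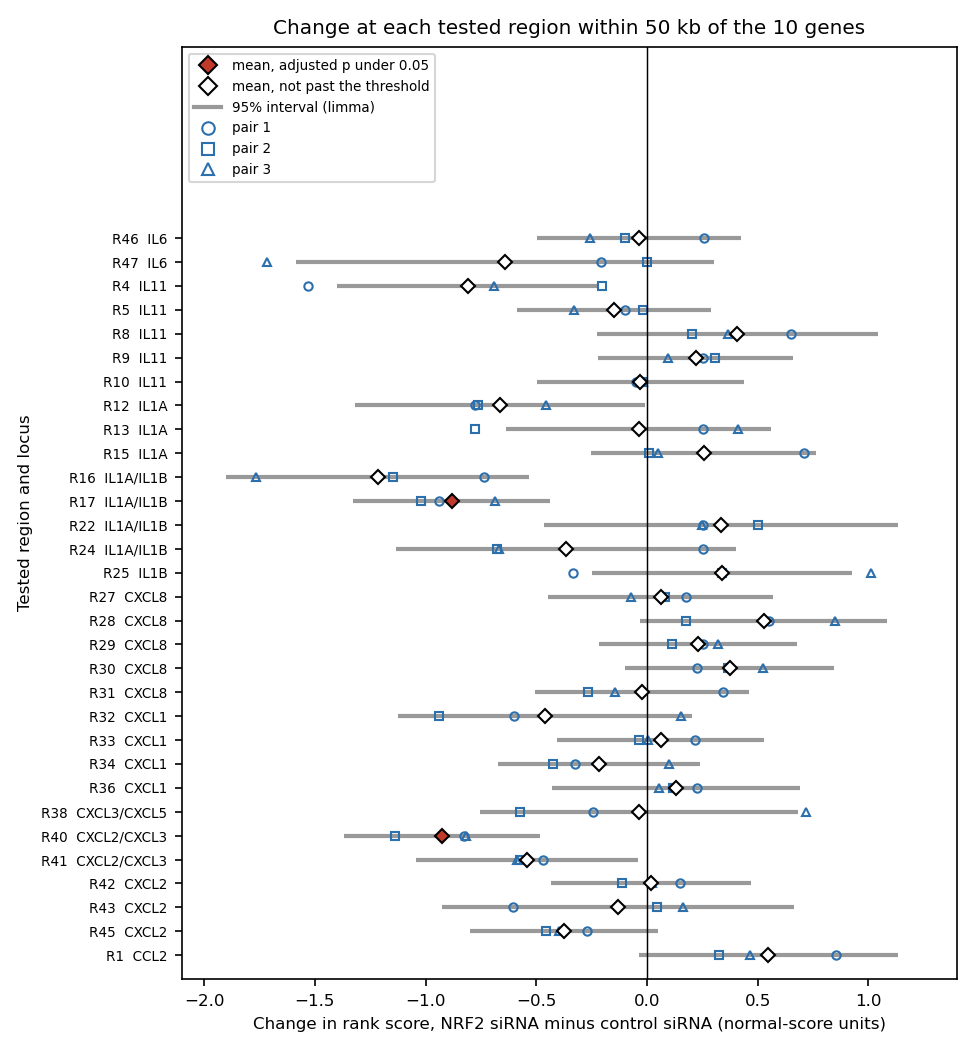
Change in rank score between NRF2 siRNA and control siRNA libraries (x axis, normal-score units) at each of the 31 tested regions (y axis, by locus), with the limma mean as a diamond, its unadjusted 95% interval as a bar and the 3 replicate pairs as open symbols. The filled diamonds mark R17 and R40, the 2 regions past the threshold, and both lie below 0.

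A single region was called on one side only. R16, upstream of IL1A, was called in all 3 control and no NRF2 siRNA libraries (2.08% of the 48 regions, against 2.27% of all regions). None of the 48 regions was called in all 3 NRF2 siRNA and no control libraries, against 0.83% of all regions.

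The interleukin genes of the IL-6 family were described first. At the start of IL6, R48 (chr7:22765591-22767327), which also holds the start of STEAP1B and overlaps IL6-AS1, was called only in control replicate 3, at percentile 30.5. In this annotation IL6 begins upstream of the RefSeq start used for the promoter above, and R48 covers that promoter as well. The IL6 start was thus without a peak in 5 of 6 libraries, including all 3 with NRF2 siRNA. The best-ranked region of the locus, R46 (chr7:22706261-22715779), lay 49724 bp upstream in an intron of STEAP1B. Its percentiles were 54.0, 75.6 and 79.5 in control and 58.3, 72.4 and 70.2 in NRF2 siRNA libraries. The groups overlapped, and the change was -0.03 (95% interval -0.49 to 0.43, adjusted p = 0.945 by limma).

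Within 1000 bp of the IL11 start a peak was called only in NRF2 siRNA replicate 3. The nearest region, R8 (chr19:55882150-55888053), was intergenic, began 319 bp upstream of IL11 and ended 141 bp from the start of TMEM190. It was at percentiles 53.3, 44.2 and 56.9 in control and 75.4, 53.0 and 66.3 in NRF2 siRNA libraries. It was higher with NRF2 siRNA in all 3 pairs, but the highest control library lay above the lowest NRF2 siRNA library. The change was 0.41 (95% interval -0.23 to 1.04, adjusted p = 0.439 by limma). The best-ranked region of the locus was R10 (chr19:55917537-55920559), at the start of UBE2S, which encodes a ubiquitin-conjugating enzyme. Its percentiles were 88.5, 92.4 and 96.0 in control and 84.9, 92.1 and 95.6 in NRF2 siRNA libraries, which overlapped (change -0.03, adjusted p = 0.951 by limma).

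IL1A and IL1B, which lie next to each other on chromosome 2, had no peak within 1000 bp of their starts in any library. The only region of these loci past the threshold lay upstream of IL1A. R17 (chr2:113550800-113552885), 8730 bp upstream of the IL1A start and intergenic, was at percentiles 41.6, 53.1 and 54.0 in control libraries. It was not called in NRF2 siRNA replicate 1 and was at 11.6 and 26.8 in replicates 2 and 3. The groups did not overlap. The change was -0.88 ± 0.20 (SE, n = 3 each; 95% interval -1.33 to -0.44, adjusted p = 0.0365 by limma), with both siRNAs in the same direction. R17 was also the best-ranked region of the IL1B window, 41508 bp from the IL1B start.

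R16 (chr2:113547640-113548682), between R17 and IL1A at 5570 bp from the start, was at percentiles 30.3, 30.6 and 52.1 in control libraries and was called in no NRF2 siRNA library. Its change was -1.22 ± 0.30 (SE; 95% interval -1.90 to -0.53). It missed the threshold in the unblocked fit (adjusted p = 0.0526 by limma) and passed it with the replicate number as a block (adjusted p = 0.0185). R16 met the filter of at least 3 called libraries through the control group alone. Its p-values are therefore not independent support for a fall. In control libraries R17 lay near the middle of the lists and R16 between their lower part and their middle. An uncalled peak can also lie just under the calling threshold. The best-ranked region of the IL1A window, R15 (chr2:113521344-113523032), was the promoter of CKAP2L, a mitotic spindle gene. It was at 26.1, 62.8 and 72.8 in control and 54.7, 63.4 and 72.2 in NRF2 siRNA libraries, and its change was 0.26 (adjusted p = 0.555 by limma).

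The DNA of these regions holds AP-1 motifs, for which the letters TGANTCA were searched on both strands. R17 and R16 held 1 match each. A match was found in 59.7% of 7790 tested regions within 20% of the length of R17 and in 41.2% of 3264 within 20% of that of R16. In R16 the match is the first part of TGACTCAGC. That is also a match to the core of an antioxidant response element, searched as TGACNNNGC and TGAGNNNGC, of which R16 held 1 and R17 held 0. At least 1 such core was present in 69.0% and 83.4% of regions of like length. The 61 bases around each AP-1 match are given on the plus strand of GRCh37, with the match in capitals. They lie at chr2:113551401-113551461 for R17 and chr2:113548049-113548109 for R16.
R17: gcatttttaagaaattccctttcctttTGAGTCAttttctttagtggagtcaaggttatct
R16: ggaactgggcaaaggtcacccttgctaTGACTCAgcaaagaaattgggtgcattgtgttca
The shares show that such matches are common in acetylated regions of this length.

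**Figure D2:**
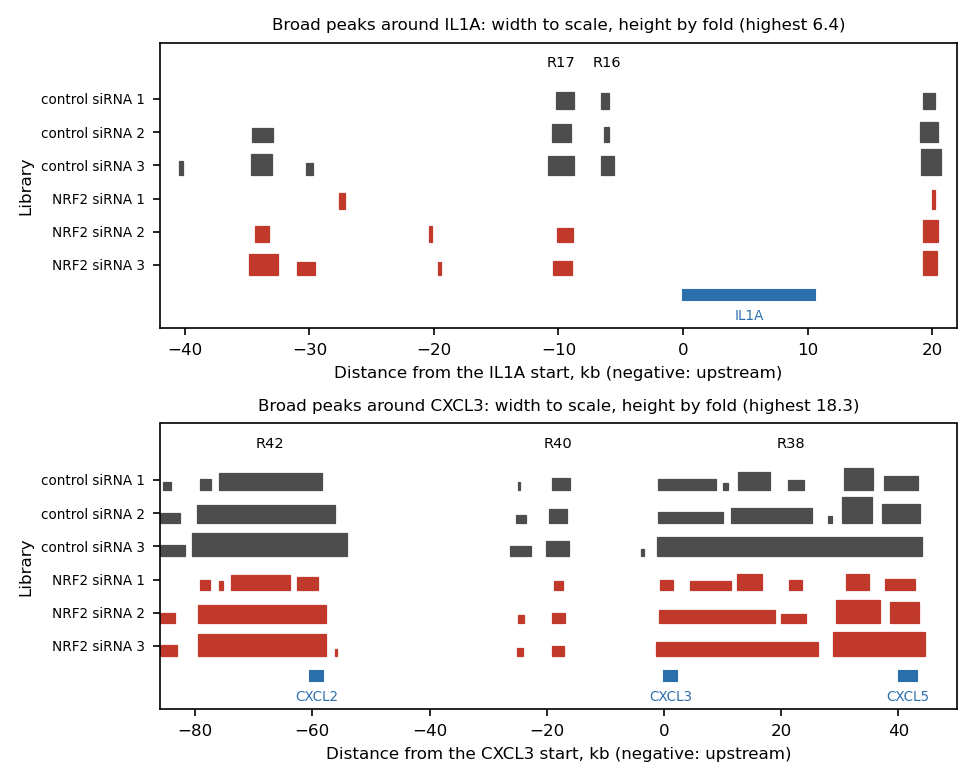
Broad peaks of each library (y axis; grey, control siRNA; red, NRF2 siRNA) by distance in kb from the start of IL1A (upper panel) and CXCL3 (lower panel), with upstream on the left. Width is to scale, height shows fold enrichment within the panel, and blue bars are the genes. R16 was called in the 3 control libraries only, R17 in all but NRF2 siRNA replicate 1, and R40 in all 6, at lower percentiles after NRF2 siRNA.

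The 5 CXC chemokine genes form a cluster on chromosome 4, and their starts were called in every library. The starts of CXCL2, CXCL3 and CXCL5 lay in the highest-ranked regions near the 10 genes. R38 (chr4:74859990-74905892), a region of 45903 bp that holds the starts of both CXCL3 and CXCL5, was at percentiles 99.2, 99.8 and 94.7 in control and 98.1, 98.8 and 98.9 in NRF2 siRNA libraries. R42 (chr4:74958608-74985062) holds the starts of CXCL2 and of MTHFD2L, a gene of mitochondrial folate metabolism. It was at 95.8, 96.0 and 97.7 in control and 96.4, 95.03 and 97.7 in NRF2 siRNA libraries. The groups overlapped in both, with changes of -0.03 (95% interval -0.75 to 0.68, adjusted p = 0.966 by limma) and 0.02 (95% interval -0.43 to 0.47, adjusted p = 0.969).

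R38 was a single peak in control replicate 3 and several peaks in the other libraries, so the peak within 1000 bp of each start was also examined, a choice made after seeing the data. At CXCL3 this peak was at 72.1, 74.8 and 94.7 in control and 73.4, 83.1 and 86.2 in NRF2 siRNA libraries. At CXCL5 it was at 90.3, 97.2 and 94.7 in control and 76.0, 97.2 and 98.9 in NRF2 siRNA libraries. Neither gene was separated by group (exact permutation test, two-sided, p = 1 for each, with 3 libraries a group). R42 was more than 1 peak in control replicate 1 and NRF2 siRNA replicates 1 and 3. The peak within 1000 bp of the CXCL2 start was at 95.78, 96.04 and 97.69 in control and 91.05, 95.03 and 97.67 in NRF2 siRNA libraries. The groups overlapped, with a difference in means of -1.92 points (exact permutation p = 0.4).

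The starts of CXCL1 and CXCL8 were acetylated at a similar rank. R33 (chr4:74730633-74740243), at CXCL1, was at percentiles 76.0, 76.6 and 81.5 in control and 79.2, 75.6 and 80.2 in NRF2 siRNA libraries (change 0.06, 95% interval -0.40 to 0.53, adjusted p = 0.897 by limma). R30 (chr4:74604509-74609777), at CXCL8, was at 71.1, 83.9 and 80.0 in control and 74.6, 91.3 and 90.1 in NRF2 siRNA libraries. CXCL8 was higher in all 3 pairs, by 3.53, 7.48 and 10.1 percentile points, with overlap between groups (change 0.37, 95% interval -0.10 to 0.85, adjusted p = 0.335 by limma).

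CXCL8 had a further region upstream among the 3 largest rises. R28 (chr4:74591049-74598106), intergenic and 8130 bp upstream, was at percentiles 56.6, 75.7 and 56.0 in control and 74.2, 81.0 and 80.0 in NRF2 siRNA libraries. It was higher in all 3 pairs, but the groups overlapped and the change of 0.53 (95% interval -0.03 to 1.09) did not pass the threshold (adjusted p = 0.2495 by limma). The best-ranked region of the locus was R27 (chr4:74568021-74575804), 30432 bp upstream. It was at 87.6, 96.4 and 96.2 in control and 89.3, 97.0 and 95.3 in NRF2 siRNA libraries, with a change of 0.06 (adjusted p = 0.907 by limma). At CXCL1 the best-ranked region was R34 (chr4:74748690-74769660), 13580 bp downstream of the start. It was at 81.3, 85.2 and 84.9 in control and 63.8, 73.4 and 86.0 in NRF2 siRNA libraries, with a change of -0.22 (adjusted p = 0.583 by limma).

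**Figure D3:**
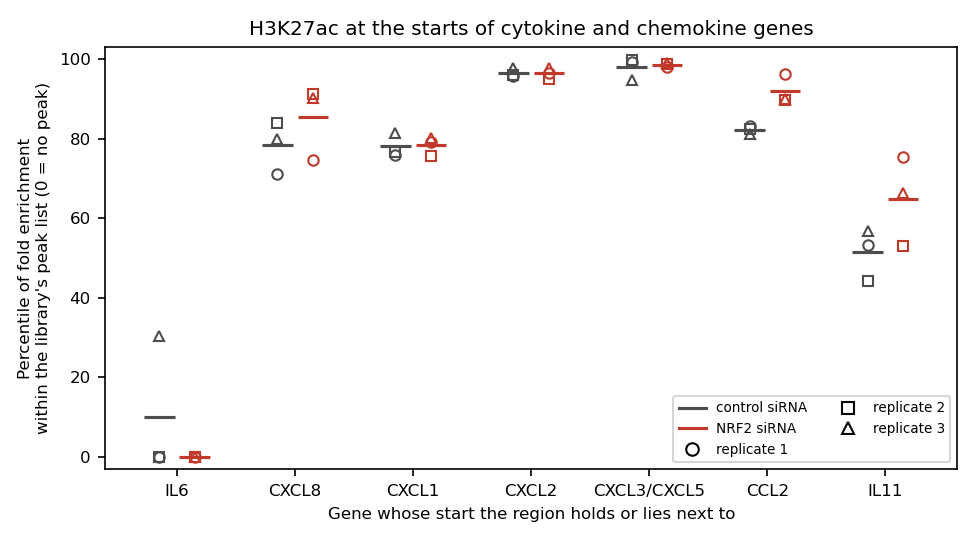
Percentile of fold enrichment within each library's own list (y axis; 0 where the library had no peak) for the region at each gene's start (x axis), with control siRNA in grey, NRF2 siRNA in red, one symbol per replicate and bars for group means. The groups are apart at CCL2 alone, where the control libraries lie between 81.1 and 83.2 and the NRF2 siRNA libraries between 89.7 and 96.3. IL1A and IL1B had no such region. At IL11 the region is R8, which had a peak within 1000 bp of the start in NRF2 siRNA replicate 3 alone. For CXCL3 and CXCL5 the value is that of the highest peak in R38, which need not lie at either start.

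The largest fall in the chemokine cluster lay between CXCL3 and CXCL2. R40 (chr4:74920610-74924611) was intergenic, 16086 bp upstream of the CXCL3 start and 40302 bp downstream of the CXCL2 start, and overlapped the pseudogene PPBPP2. It was at percentiles 79.5, 89.6 and 87.0 in control libraries and at 31.2, 55.0 and 62.6 in NRF2 siRNA libraries. All 3 NRF2 siRNA libraries lay below all control libraries. The change was -0.93 ± 0.20 (SE, n = 3 each; 95% interval -1.37 to -0.48, adjusted p = 0.0313 by limma), and it was -0.82, -1.14 and -0.82 in pairs 1, 2 and 3. The starts of CXCL2 and CXCL3 on either side did not change past the threshold. Whether R40 acts on either gene was not measured.

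Leaving out 1 library ended most calls at R40 and R17, as it did genome-wide. Of all tested regions, limma called 0 lower and 0 higher without control replicate 2 and without control replicate 3. Without NRF2 siRNA replicate 2 it called 0.293% lower, against 3.39% with all 6 libraries. Among the regions near the 10 genes, the unadjusted p was under 0.05 at 6 of 29, 3 of 29 and 4 of 30 in these fits. Their direction and the share of all tested regions at that cut are not given for these fits. No conclusion is drawn from these counts. Leaving out NRF2 siRNA replicate 1 kept both past the threshold (adjusted p = 0.0357 for R40 and 0.0411 for R17). Leaving out any of the other 5 libraries did not. Without control replicates 1, 2 and 3, the adjusted p was 0.0749, 0.139 and 0.108 for R40 and 0.0899, 0.137 and 0.102 for R17. Without NRF2 siRNA replicates 2 and 3 it was 0.136 and 0.0851 for R40 and 0.170 and 0.113 for R17. The change stayed below 0 in each of these fits, between -1.05 and -0.88 for R40 and between -1.12 and -0.83 for R17.

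R40 held 2 AP-1 matches and 2 antioxidant response element cores that do not overlap them. At least as many were found in 53.7% and 80.6% of the 4987 tested regions within 20% of its length. The 61 bases around each AP-1 match are shown on the plus strand of GRCh37, at chr4:74922461-74922521 and chr4:74922665-74922725, because R40 carries the largest fall past the threshold.
R40, first match: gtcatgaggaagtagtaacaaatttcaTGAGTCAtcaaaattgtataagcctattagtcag
R40, second match: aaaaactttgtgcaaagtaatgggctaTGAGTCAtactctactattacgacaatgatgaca
R40 held no κB match, and neither did R16 or R17.

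CCL2 was the gene at which the groups did separate upward. R1 (chr17:32574379-32584085), the only region within 50 kb of CCL2, covers its start and was called in all 6 libraries. It was at percentiles 83.2, 82.5 and 81.1 in control and 96.3, 89.7 and 89.9 in NRF2 siRNA libraries. The means were 82.3 ± 1.04 and 92.0 ± 3.79 (SD, n = 3 each), and every NRF2 siRNA library lay above every control library. An exact permutation test gave p = 0.1, the smallest that 3 against 3 libraries can give (two-sided; 0.7 after adjustment over the 7 distinct start regions). On the score scale the change was 0.55 ± 0.26 (SE; 95% interval -0.04 to 1.13, adjusted p = 0.251 by limma, and 0.105 with the replicate block). Pairs 1, 2 and 3 gave 0.85, 0.33 and 0.47, and it passed the threshold in 0 of 18 settings. R1 held 20 antioxidant response element cores and 1 κB match. Among 1638 tested regions within 20% of its length, 0.549% held as many cores and 33.3% a κB match. The count of cores was singled out after it was seen.

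The length covered by peaks was shorter after NRF2 siRNA at most of these loci. The whole lists also covered less in pairs 1 and 3. In pair 2 they covered nearly the same length, 84.8 Mb with NRF2 siRNA and 85.0 Mb in control. Over the 885.7 kb of the 10 windows counted once, peaks covered 110.5, 145.7 and 190.2 kb in control and 84.6, 130.4 and 164.4 kb in NRF2 siRNA libraries. The means were 148.8 ± 39.9 and 126.5 ± 40.02 kb (SD, n = 3 each; exact permutation p = 0.5). The NRF2 siRNA library was lower in all 3 pairs (exact permutation over pairs, p = 0.25, and 3 pairs cannot give less). As a share of each list's covered length the loci took 0.171, 0.172 and 0.168% in control and 0.183, 0.154 and 0.156% in NRF2 siRNA libraries (exact permutation p = 0.4).

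By locus, covered length was lower in all 3 pairs at IL6, IL1A, IL1B, CXCL1, CXCL2, CXCL3, CXCL5 and IL11. At CXCL8 pair 3 was higher and the other pairs lower. CCL2 was the locus with more covered length in all 3 pairs, 8.40, 7.37 and 8.14 kb in control and 9.71, 8.27 and 8.46 kb in NRF2 siRNA libraries (exact permutation p = 0.2). At IL1A peaks covered 3.92, 8.30 and 13.0 kb in control and 0.70, 5.44 and 8.83 kb in NRF2 siRNA libraries (exact permutation p = 0.5). Adjusted over the loci, the lowest p was 0.75. The windows of neighbouring genes overlap, so these loci are not independent.

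**Figure D4:**
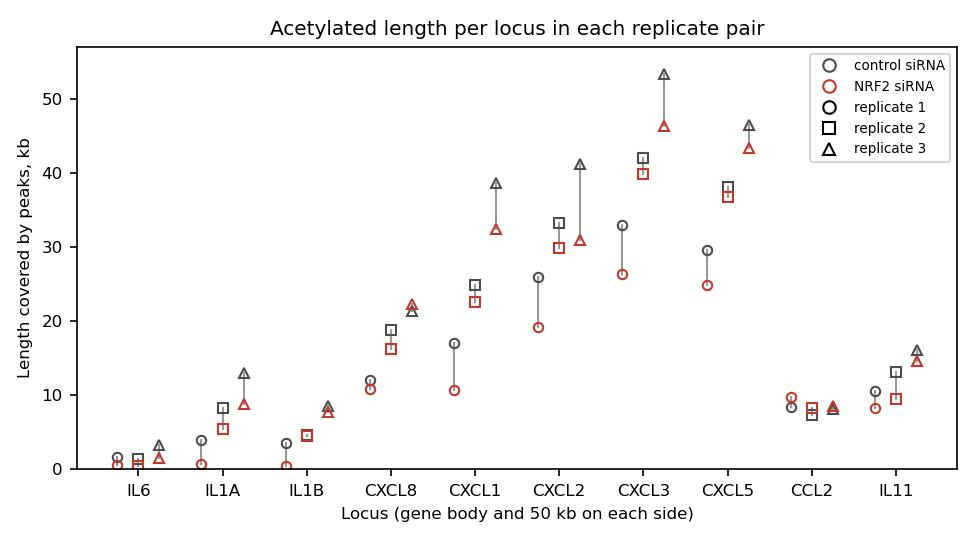
Length covered by peaks in kb (y axis) in each gene's window (x axis), with grey for control siRNA, red for NRF2 siRNA, and a line joining the libraries of one replicate number. CXCL3 and CXCL5 had the most covered length and IL6 the least by group mean, and the red symbols lie above the grey ones in all 3 pairs at CCL2 alone.

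Regions near the genes that carry or sense these signals were given the same test, by which 3.39% of all tested regions fell and 2.01% rose. Of 75 tested regions within 50 kb of 19 NF-κB signalling genes, 2 fell (2.67%) and 1 rose (1.33%), with a median change of 0.00067, against 0.02 over all tested regions. The rise was in the window of NFKB1 and the falls in those of the kinases IRAK1 and MAP3K7. At the starts of RELA and NFKBIA the change was 0.09 (adjusted p = 0.851 by limma) and -0.01 (adjusted p = 0.987). Of 35 regions near 11 receptor genes, 2 fell (5.71%), near IL6R and IL1R1, and 0 rose, with a median of -0.23. The starts of CXCR1, CXCR2 and CCR2, the receptors for these chemokines, were called in no library. Of 31 regions near 6 JAK-STAT genes, 1 fell (3.23%), near JAK2, and 0 rose, with a median of -0.08. Of 64 regions near 19 other inflammatory genes, 3 of them shared with the 10 genes here, 1 fell (1.56%), near MIF, and 0 rose, with a median of -0.03. Single genes in this paragraph were named after their values were seen, because the counts are small.

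Canonical NRF2 target genes were examined by the same measure. The starts of GCLC and SRXN1, named after their values were seen, are given here. Among the starts of the 8 genes examined they had the lowest adjusted p-values, so they do not stand for the list. The other starts are not reported here. GCLC encodes the catalytic subunit of the enzyme that limits glutathione synthesis, and its start was at percentiles 99.8, 99.9 and 99.8 in control and 83.8, 94.9 and 97.3 in NRF2 siRNA libraries (change -1.37, adjusted p = 0.0134 by limma). SRXN1 encodes sulfiredoxin, an antioxidant enzyme, and its start was at 94.1, 92.3 and 92.1 in control and 56.8, 57.9 and 70.7 in NRF2 siRNA libraries (change -1.06, adjusted p = 0.0267 by limma). At both starts all NRF2 siRNA libraries lay below all control libraries. The difference between these genes and the 10 cytokine and chemokine genes was not tested.

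The changes were also compared between siRNA 28 (pair 1) and siRNA 30 (pairs 2 and 3). None of the 31 regions differed between siRNAs past the threshold, and neither did any of the 32673 (limma with an interaction term and 1 residual degree of freedom). At an unadjusted p under 0.05, 3 of the 31 and 5040 of all tested regions differed. The median change of the 31 regions in pairs 1, 2 and 3 was 0.15, -0.03 and 0.02. A region uncalled in both libraries of pair 1 still has a change of 0.25 there, because NRF2 siRNA replicate 1 left more regions tied at the lowest rank.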

How the data were processed

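Per the study's methods, single-end reads were aligned to hg19 with Bowtie2 2.2.6, reads of low mapping quality were removed with SAMTools, and MACS2 2.1.0.20151222 was run on single libraries to call broad peaks, with ENCODE blacklist regions removed. The deposited lists give each peak's position, an integer score, the fold enrichment as a ratio, and its p-value and q-value as −log10. They hold no read counts, so depth was not used and no interval that needs it is given. Whether an input library served as background is not given in the sources used here, and the 2 input samples were not analysed. The authors' fold enrichment was used only to rank peaks within a list.

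Here, peaks of the 6 lists were merged where they shared at least 1 base, and regions called in at least 3 of 6 libraries were given ranks per library from their highest fold. Uncalled regions took the tied lowest rank. Normal scores of the ranks entered limma 3.58.1 in R 4.3.3, through lmFit and eBayes, with Benjamini-Hochberg adjustment over 32673 regions. Where each library gave 1 value, two-sided exact permutation tests were used (scipy 1.17.1). All 24 chromosomes with regions were found in a GRCh37 sequence, with 0 regions past an end. Genes came from GENCODE lifted to GRCh37 and promoters from RefSeq (GRCh38.p14).

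The members, gene lists and tests were chosen with earlier results of these data known. Regions named were those at the 10 starts, the best-ranked of each locus, those past the threshold, one-sided regions, and the 3 largest falls and rises. Replicate numbers come from the sample titles, and deviations from the group means correlated between libraries of one number (r = 0.398, 0.199 and 0.363). The numbers therefore pair the libraries, and the replicate was also fitted as a block. Other alternatives were equal list lengths (23885 peaks), a q-value of at most 1e-05, other filters, merging, ranking and windows, and leaving out each library. The peaks in start windows, and the lengths, percentiles, one-sided counts and blocked fit over pairs 2 and 3, were added after the data were seen. Some results for marker and comparison genes are not reported here.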

Additional observations from a re-analysis of the deposited data

Results flagged for a closer look

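In the regions at 2 chemokine starts, R33 and R42, siRNA 28 (pair 1) and siRNA 30 (pairs 2 and 3) gave differences of opposite sign. At CXCL1 the percentile in the NRF2 siRNA library minus that in its control was 3.23 points in pair 1, -0.99 in pair 2 and -1.29 in pair 3. At CXCL2 it was 0.62 points in pair 1, -1.01 in pair 2 and -0.025 in pair 3. The opposite sign at CXCL2 holds for the highest peak of R42 and not for the peak at the start. Within 1000 bp of the CXCL2 start, pair 1 was lower too, at 91.05 with NRF2 siRNA against 95.78 in control. The difference between siRNAs in percentile points was not tested. On the score scale it did not pass the threshold in either region (limma with an interaction term, adjusted p = 0.731 for R33 and 0.786 for R42).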

How the results depend on the processing

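No alternative gave a region that rose among the 10 genes. The count of regions that fell was 2 of 31 (6.45%, against 3.39% of all tested regions). At a q-value limit of 1e-05 it was 1 of 19 (5.26%, against 2.56%). With regions called in all 6 libraries it was 1 of 19 (5.26%, against 2.19%). With regions called in at least 1 it was 1 of 48 (2.08%, against 2.29%), namely R16. The count was 4 of 35 over pairs 2 and 3 only (11.4%, against 6.49% of all tested regions). It was 7 of 35 over those pairs with the replicate block (20%, against 9.21%). Among these 35 regions, 4 were called in both control and no NRF2 siRNA libraries of those pairs, R16 included. They met the filter through control libraries alone, so counts that may hold them are not independent support for a fall. Without NRF2 siRNA replicate 1 the count was 3 of 31 (9.68%, against 4.96%), R16 among them. Without any other single library it was 0 (against 0 to 1.21%). The replicate block over all pairs gave 3 of 31 (9.68%, against 6.62%), again with R16. The count called in control libraries only was 1 of 48 (2.08%, against 2.27% of all regions). It was 0 at the stricter q-value, 4 over pairs 2 and 3, and 1 to 4 when 1 library was left out. For these alternatives the share over all regions is not given, and no conclusion is drawn from them. Genome-wide, the counts of falls and rises were 1108 and 657, with the replicate block 2164 and 1868, and with equal list lengths 1321 and 1185. They were 451 and 263 at the stricter q-value, 369 and 341 with regions called in all 6 libraries, and 2440 and 2117 over pairs 2 and 3, or 3461 and 3743 there with the block. Without control replicates 1, 2 and 3 they were 220 and 202, 0 and 0, and 0 and 0, and without NRF2 siRNA replicates 1, 2 and 3 they were 1591 and 747, 89 and 3, and 353 and 131. The cause of these moves was not tested.

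R40 passed the threshold in 12 of 18 settings, R17 in 8 of 16 and R16 in 6 of 11. R17 and R16 had no value where a stricter filter removed them, and R16 none where a control library was left out. R16 entered the fits through control libraries alone, so its count is not independent support for a fall. With regions called in at least 1 library the adjusted p was 0.0697 for R40 and 0.101 for R17. With trend and robust eBayes it was 0.0668 for R17 and 0.0421 for R16. Added to the fit of all 6 libraries, the replicate block changed the call of R16 and of no other named region. Over pairs 2 and 3 it took the adjusted p of R17 from 0.0528 to 0.0423, and with equal list lengths it raised the count of falls from 2 to 3.

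Changes near 0 reversed. Length-weighted fold gave -0.032 for R42. Over pairs 2 and 3, with or without the block, R33 gave -0.014, R42 -0.043 and R38 0.067. With 1 library left out, R38 ranged from -0.42 to 0.24, R27 from -0.087 to 0.17, R42 from -0.044 to 0.12, R46 from -0.15 to 0.038, R10 from -0.13 to 0.061 and R33 from -0.065 to 0.14. Differences in start percentile reversed at CXCL1 over pairs 2 and 3 (-1.14), at CXCL2 with equal list lengths (0.0042), and at CXCL3 and CXCL5 with length-weighted fold (-2.51) and with the peak in the CXCL5 start window (-3.32). With 1 library left out they ranged from -0.71 to 2.07 points at CXCL1, from -0.79 to 0.53 at CXCL2 and from -0.89 to 1.64 at CXCL3 and CXCL5. Differences in covered length reversed as a share of each list's covered length at CXCL8 (0.0013%), CXCL3 (8.64e-05%) and CXCL5 (0.0021%). With 1 library left out they ranged from -3.07 to 0.55 kb at IL1B, from -3.87 to 1.86 at CXCL8, from -10.3 to 0.88 at CXCL1, from -10.2 to 0.32 at CXCL3 and from -7.29 to 2.01 at CXCL5. The lists hold no depth, so a region missing from a list cannot be told from one just under the calling threshold.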
